A study of Mus musculus with 15 samples.

Results

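The cornified envelope and late differentiation genes are a set of 36 mouse genes that act in the outermost living layers of the epidermis. They were taken by gene symbol, matched to the Ensembl gene identifiers of the count tables, and the rule uses no measured value, though the list was drawn up with earlier results of these data known. Of the 36 genes 35 had a row among the 37583 genes counted, and Flg was not analysed here. Of the 35, 33 had enough counts to be tested. The envelope gene Sprr4 (8 counts over all 15 libraries) and the filaggrin-like gene Hrnr (26 counts) were too low, with at most 0.153 and 0.472 counts per 1e6 counts of the library (CPM) in any library. CPM were computed from the gene counts on library sizes scaled by the trimmed mean of M-values (TMM).

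The study sorted cells of mouse skin tumours by flow cytometry on CD34 and on integrin alpha 6 (a6, encoded by Itga6) and sequenced their RNA. The 3 populations were CD34-positive a6-high, CD34-negative a6-low and a6-high CD34-negative cells, each with 2 libraries labelled KO and 3 labelled WT. All mice were of the C57BL/6 strain, and all had been treated for more than 24 weeks with the mutagen DMBA and the tumour-promoting phorbol ester TPA, so there are no libraries of untreated skin. KO libraries carry the label SIRT6 KO (K14-cre; SIRT6 flox/flox), that is, floxed alleles of the deacetylase gene Sirt6 and a Cre recombinase driven by the keratin 14 promoter, which is active in keratinocytes, so that cells of other types in a sorted sample would keep the gene. The label of the other libraries says WT and does not give their floxed alleles or Cre. Ages are not given in the labels. Within each population the labels name the libraries KO1, KO2, WT1, WT2 and WT3, here called animal labels, without stating that a name stands for 1 animal. CD34 marks cells of the hair follicle bulge in normal mouse skin, and a6 is a laminin receptor of cells on the basement membrane.

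Keratinocytes that leave the basal layer end as flat dead cells whose plasma membrane is replaced by the cornified envelope. Transglutaminases cross-link involucrin, loricrin and the small proline-rich proteins under the membrane on a scaffold of envoplakin and periplakin, and ceramides made by lipid enzymes and modified by epidermal lipoxygenases are bound to its outer face. Proteases and their inhibitors then set when the cell is shed. In normal epidermis most of these genes are active in the granular layer and low in basal cells, and several of the small proline-rich protein genes are also known to be induced in wounded, inflamed and neoplastic epidermis.

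The libraries held 10.08 to 28.62 M gene counts (M, 1e6; median 20.27), 19.78 to 28.62 M in those labelled KO and 10.08 to 21.56 M in WT, and 15885 to 19380 genes were detected. The range of Sirt6 was 5.07 to 8.52 CPM under the KO label and 4.45 to 10.5 CPM under the WT label. The count covers the whole gene, so it does not check the genotype label. Markers of basal keratinocytes summed to 35286 to 84666 CPM in every library (13 genes, Krt5 and Krt14 among them), so keratinocyte RNA was present in each. Most of this was Krt14, with means of 45598 CPM in CD34-positive, 42513 CPM in a6-low and 58311 CPM in a6-high CD34-negative libraries. The sum does not check which population was sorted. Itga6 was at 67.8, 94.0 and 174 CPM in a6-low libraries of KO replicate 1, WT replicate 2 and WT replicate 3, but at 445 CPM in KO replicate 2 and 471 CPM in WT replicate 1, inside the 263 to 575 CPM of the a6-high libraries. Effect sizes that rest on a6-low cells are therefore also given without these 2 libraries, a choice made after seeing the data. It leaves 1 KO library in a6-low cells. The Y-linked gene Ddx3y reached 74.9 CPM in libraries labelled KO, where it was found in replicate 2, against 0.222 CPM or less in WT libraries.

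Promoter sequences of 29 of the 36 genes were at hand from RefSeq (build GRCm38.p6), and those of 4 genes on which the comparisons turn are shown. Each runs 5′ to 3′ over the 250 bases before the gene's start. Capitals mark matches to TGANTCA, the motif of the AP-1 factors that TPA is known to activate. Sprr1a (chr3:92485882-92486131, minus strand) and Cnfn (chr7:25369725-25369974, minus strand) had their highest mean in CD34-positive cells, and Scel (chr14:103513091-103513340, plus strand) and Alox12e (chr11:70322531-70322780, minus strand) in a6-low cells.
Sprr1a: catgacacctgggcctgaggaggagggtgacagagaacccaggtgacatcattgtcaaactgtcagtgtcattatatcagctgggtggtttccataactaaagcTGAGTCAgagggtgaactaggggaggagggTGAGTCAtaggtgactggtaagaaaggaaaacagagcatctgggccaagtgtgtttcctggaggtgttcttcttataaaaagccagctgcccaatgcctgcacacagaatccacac
Cnfn: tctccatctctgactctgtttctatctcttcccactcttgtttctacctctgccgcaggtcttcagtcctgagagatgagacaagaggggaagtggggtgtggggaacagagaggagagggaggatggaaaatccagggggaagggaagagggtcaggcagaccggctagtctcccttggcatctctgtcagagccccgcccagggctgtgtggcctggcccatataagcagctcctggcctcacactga
Scel: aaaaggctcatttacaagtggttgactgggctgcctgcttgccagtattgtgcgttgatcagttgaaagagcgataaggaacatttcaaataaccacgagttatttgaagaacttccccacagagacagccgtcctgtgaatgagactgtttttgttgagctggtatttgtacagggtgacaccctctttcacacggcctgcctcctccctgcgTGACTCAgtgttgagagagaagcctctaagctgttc
Alox12e: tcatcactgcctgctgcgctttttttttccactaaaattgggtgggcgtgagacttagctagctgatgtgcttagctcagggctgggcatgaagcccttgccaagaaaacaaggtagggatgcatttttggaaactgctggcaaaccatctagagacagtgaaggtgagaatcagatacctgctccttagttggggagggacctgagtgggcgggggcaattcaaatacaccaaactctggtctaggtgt

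Sprr1a, with matches that begin 146 and 116 bases before the start, and Scel, with 1 that begins 36 bases before it, have the AP-1 letters, and Cnfn and Alox12e do not. AP-1 letters stood in the promoters of 12 of the 29 genes, 11 of them with counts here, while 6.75% of 32851 promoters of the same length hold them. Counted by promoter, as that share is, they stood in 14 of 33, since Dmkn has 3. TGANTCA reads alike on both strands and each match was counted once. GGGNGTGG, a motif of KLF4, a factor of granular keratinocytes, was searched on both strands and stood in 4 of the 29 (Ivl, Cnfn, Casp14 and Alox12b; 15.9% of all promoters). AACCNGTT, a motif of the grainyhead-like factors, was also searched on both strands and stood in 1 (Rptn, with 1.79% of all promoters). By promoter, the KLF4 and grainyhead-like motifs stood in 4 and 1 of the 33. None of the matches to these motifs in the 4 sequences shown overlaps another. A match is a description of these letters and does not show that a factor binds there.

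Levels of the 35 genes differed widely. To set genes beside each other, CPM were divided by the length of all annotated exons of a gene. This length can exceed that of the transcript present in these cells. Per kilobase of exon the secreted protein gene Krtdap was highest with a mean of 11068 CPM per kb over the 15 libraries. It was followed by the calmodulin-like gene Calm4 (4279), the fatty acid binding protein gene Fabp5 (2100), the surface protein gene Lypd3 (1596) and the dermokine gene Dmkn (1379 CPM per kb). Not corrected for length, these 5 genes held 79.5% to 95.5% of the summed CPM of all 35 in a library (median 89.4%). Their order depends on the length used, as Krtdap and Fabp5 averaged 7515 and 7492 CPM before division by 679 and 3567 bases. The small proline-rich protein genes Sprr1a and Sprr1b followed with 836 and 805 CPM per kb. Classical markers of the granular layer lay lower, with 17.4 CPM per kb for involucrin (Ivl), 15.9 for Casp14, 7.70 for Tgm1, 2.91 for loricrin (Lor) and 1.88 for Tgm3.

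**Figure D1:**
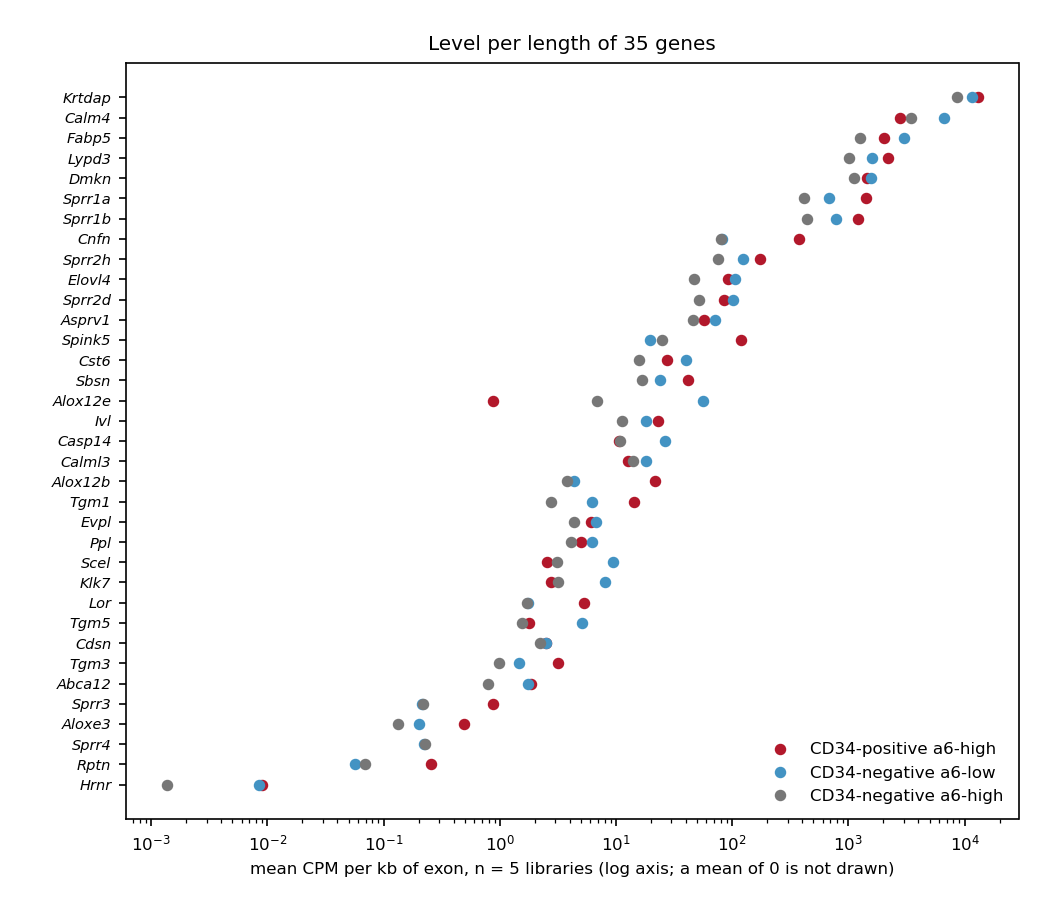
Mean level of the 35 genes in CPM per kilobase of exon (log axis), 1 row per gene, with a point for the 5 libraries of each sorted population. Krtdap is highest with 11068 CPM per kb over all libraries, and a mean of 0, that of Sprr4 in CD34-positive cells, is not drawn.

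In the sentences that give values by library, they stand in the order KO replicates 1 and 2, then WT replicates 1, 2 and 3. Ivl (ENSMUSG00000049128), which encodes the first protein cross-linked into the envelope, was at 62.0, 20.5, 31.1, 63.8 and 42.0 CPM in CD34-positive, 88.5, 17.4, 14.7, 33.7 and 19.1 CPM in a6-low and 39.1, 12.7, 23.0, 9.84 and 24.5 CPM in a6-high CD34-negative libraries. Lor (ENSMUSG00000043165), which encodes the main envelope protein of normal epidermis, was at 19.5, 19.1, 6.36, 0.436 and 1.56 CPM in CD34-positive, 9.12, 0.912, 4.23, 0.554 and 0.641 CPM in a6-low and 8.14, 0.525, 4.54, 1.39 and 0.537 CPM in a6-high CD34-negative libraries. Its level was above 5 CPM in only 5 of the 15 libraries, the 3 libraries of KO replicate 1 and the CD34-positive ones of KO replicate 2 and WT replicate 1. Krtdap (ENSMUSG00000074199) was at 6047, 3515, 8472, 11039 and 15169 CPM in CD34-positive, 7671, 2157, 4429, 16208 and 8966 CPM in a6-low and 3212, 2632, 11752, 3573 and 7882 CPM in a6-high CD34-negative libraries. The 3 populations overlapped for each of these 3 genes, though every animal label had more Ivl in CD34-positive than in a6-high CD34-negative cells. Dmkn (ENSMUSG00000060962), whose product is secreted from the upper epidermis, was at 2844, 1879, 2840, 4056 and 4313 CPM in CD34-positive, 3915, 1633, 2120, 5799 and 3583 CPM in a6-low and 1996, 1549, 3560, 2264 and 2991 CPM in a6-high CD34-negative libraries. It varied least of the abundant genes, 3.74-fold between the lowest and the highest library.

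Among the genes found in all 15 libraries, the ratio of the highest to the lowest library ran from 2.85 for the periplakin gene Ppl to 1422 for the lipoxygenase gene Alox12e. Sprr3 was above 0 in 8 libraries and Rptn in 7, so their fitted fold changes depend on the prior count and are not given. Averaged as log2(CPM + 1) over the genes, the a6-low library of KO replicate 1 was highest with 7.01 and the a6-high CD34-negative library of WT replicate 2 lowest with 4.68. Summed over the 35 genes, a6-low libraries spanned 12439 to 56415 CPM, the widest range of the 3 populations. By gene, the highest library was the a6-low one of KO replicate 1 for 10 genes, the CD34-positive one of KO replicate 1 for 9 and the a6-low one of WT replicate 2 for 8. The mean of a6-high CD34-negative cells was the highest of the 3 for none of the 33 tested genes. CD34-positive cells had the highest mean for 18 and a6-low cells for 15.

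**Figure D2:**
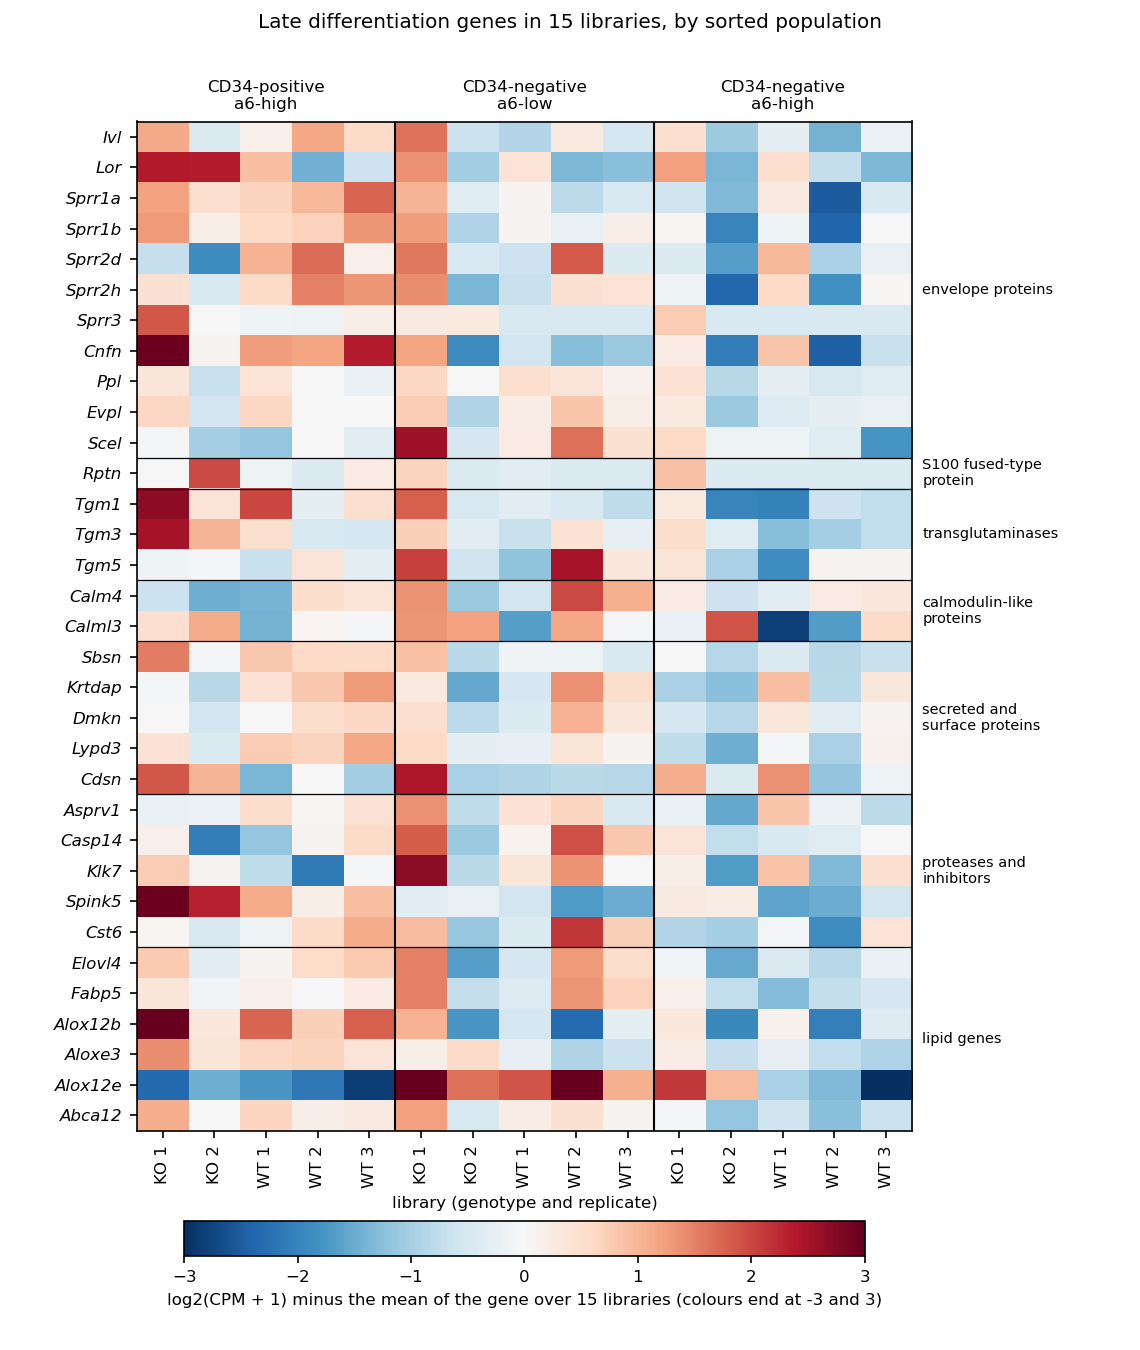
Level of the 33 tested genes in each of the 15 libraries as a heat map, with the libraries of each population side by side in the order CD34-positive a6-high, CD34-negative a6-low and a6-high CD34-negative and KO left of WT. Many genes are highest in the a6-low library of KO replicate 1, which holds the maximum of 10 genes.

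The comparison of CD34-positive with a6-high CD34-negative cells asks how the genes differ with CD34 among cells that keep a6. Most were higher in CD34-positive cells: 26 of 33 were higher and 7 lower by the sign of the fitted log2 difference, by which such counts go throughout, with a median log2 difference of 0.97 against -0.02 over all 14652 genes tested. Only the protease inhibitor gene Spink5 passed the test at an adjusted p under 0.05 (edgeR quasi-likelihood test, Benjamini-Hochberg over all genes), and none fell. At an unadjusted p under 0.05, 12 were higher and 1 lower, against 2217 of the 14652 genes in either direction. DESeq2 called 9, all higher. Over all genes 0.846% rose and 0.321% fell. Libraries of the same animal label deviated together in these populations, though weakly for WT replicates 1 and 2 (correlation of deviations 0.10 and 0.13). With the animal label as a block 11 of the 33 rose and 0 fell, against 3.33% and 2.08% of all genes. Those 11 were Sprr1a, Sprr1b, Cnfn, Tgm1, Tgm3, Lypd3, Sbsn, Spink5, Alox12b, Aloxe3 and Abca12. In all 5 animal labels 16 of the 33 (48.5%) were higher in CD34-positive cells, while 10.1% of all genes were. None was lower in all 5, as 10.7% of all genes were. A higher level in a sorted bulk sample can come from more cells of a type or from more RNA per cell, and counts cannot tell these apart.

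Of the 11 tested envelope protein genes 10 were higher in CD34-positive cells, and 3 rose with the block. Sprr1a (ENSMUSG00000050359), a small proline-rich precursor of the envelope, was at 1224, 746, 841, 1062 and 1801 CPM in CD34-positive libraries, against 354, 211, 644, 93.4 and 385 CPM in a6-high CD34-negative libraries. Every CD34-positive library lay above every CD34-negative one. The fold was 3.39 (log2 1.76 ± 0.46 SE; adjusted p = 0.0841, and 0.017 with the block). Sprr1b, its near relative, likewise did not overlap between the populations (log2 1.45 ± 0.53; adjusted p = 0.206, and 0.017 with the block). Cnfn (ENSMUSG00000063651), which encodes the envelope protein cornifelin, was at 554, 76.6, 173, 166 and 371 CPM in CD34-positive libraries, against 85.1, 16.2, 129, 12.4 and 44.8 CPM in a6-high CD34-negative libraries. Each animal label had more in CD34-positive cells, but the CD34-positive library of KO replicate 2 lay below those of KO replicate 1 and WT replicate 1 of CD34-negative cells. The fold was 4.87 (log2 2.28 ± 0.78; adjusted p = 0.173, and 0.013 with the block). The plakin genes Ppl and Evpl, which build the scaffold, had log2 differences of 0.24 ± 0.27 and 0.47 ± 0.37 and did not pass with or without the block. Scel, the sciellin gene, had the 1 lower mean of the group (log2 -0.29 ± 0.58, adjusted p = 0.902). Ivl had a log2 difference of 0.97 ± 0.50 (adjusted p = 0.411) and was higher in all 5 labels. Lor was higher in 4 (log2 1.28 ± 0.93, adjusted p = 0.606).

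All 3 transglutaminase genes were higher in CD34-positive cells, and 2 rose with the block. Tgm1 (ENSMUSG00000022218), which encodes the membrane-bound enzyme that cross-links the envelope, was at 104, 20.8, 64.9, 12.5 and 21.6 CPM in CD34-positive libraries, against 19.2, 3.11, 3.03, 9.55 and 8.74 CPM in a6-high CD34-negative libraries. Only the CD34-positive library of WT replicate 2 fell inside the range of the CD34-negative ones. Tgm1 was 5.10-fold higher (log2 2.35 ± 0.69; adjusted p = 0.113, and 0.0196 with the block). Tgm3 (ENSMUSG00000027401), a transglutaminase of the granular layer and hair follicle, was at 37.1, 12.7, 8.47, 3.85 and 3.69 CPM in CD34-positive libraries, against 8.71, 4.25, 1.80, 2.34 and 3.07 CPM in a6-high CD34-negative libraries. The KO replicate 1 library was highest in both populations, and all 5 labels had more in CD34-positive cells. The log2 difference of Tgm3 was 1.55 ± 0.42 (adjusted p = 0.0946, and 0.032 with the block). Tgm5, whose enzyme also cross-links envelope proteins, had a log2 difference of 0.16 ± 0.77 (adjusted p = 0.968).

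Of the 5 secreted and surface protein genes 4 were higher, and 2 rose with the block. Lypd3 (ENSMUSG00000057454), which encodes a membrane-anchored protein of suprabasal keratinocytes, was at 3186, 1788, 4015, 3782 and 5263 CPM in CD34-positive libraries, against 1406, 852, 2280, 1211 and 2601 CPM in a6-high CD34-negative libraries. KO replicate 2 was lowest in both populations, and the other 4 CD34-positive libraries lay above all CD34-negative ones. The log2 difference was 1.12 ± 0.27 (adjusted p = 0.0674, and 0.0131 with the block). Sbsn, the suprabasin gene, rose with the block (log2 1.31 ± 0.34; adjusted p = 0.0829, and 0.00211 with the block). The values of Krtdap and Dmkn given above differed by 0.65 ± 0.43 and 0.38 ± 0.30 on the log2 scale, and neither passed. The log2 difference of corneodesmosin (Cdsn), a glue protein of cornified cells, was -0.15 ± 0.73, though its plain mean was higher in CD34-positive than in a6-high CD34-negative libraries (6.65 ± 6.87 and 5.91 ± 4.78 CPM). Of the calmodulin-like genes, which bind calcium, Calm4 had a log2 difference of -0.47 ± 0.54 and Calml3 of -0.03 ± 0.72, and neither passed.

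Among the 5 protease and inhibitor genes Spink5 was the 1 that passed. Spink5 (ENSMUSG00000055561) encodes an inhibitor of the kallikrein proteases that loosen cornified cells. It was at 1224, 792, 342, 182 and 299 CPM in CD34-positive libraries, against 193, 185, 52.0, 56.2 and 107 CPM in a6-high CD34-negative libraries. Each label had more in CD34-positive cells, and only the CD34-positive library of WT replicate 2 lay below any CD34-negative one, those of both KO replicates. Spink5 rose 4.52-fold (log2 2.18 ± 0.29, adjusted p = 0.00786; 0.00205 with the block). The call was lost without the a6-high CD34-negative library of KO replicate 1 (log2 2.19, adjusted p = 0.0589) and without all libraries of KO replicate 2 (adjusted p = 0.0558). The other 4 of the group, the kallikrein gene Klk7, the aspartic protease gene Asprv1, Casp14 and the cystatin gene Cst6, had log2 differences between -0.13 and 0.80, and none passed.

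Lipid genes divided. Alox12b (ENSMUSG00000032807), whose lipoxygenase oxidises ceramides of the barrier, was at 129, 16.9, 47.4, 22.5 and 48.3 CPM in CD34-positive libraries, against 16.7, 2.76, 14.6, 2.44 and 9.97 CPM in a6-high CD34-negative libraries. The groups did not overlap, though by a narrow margin between KO replicate 2 of CD34-positive and KO replicate 1 of CD34-negative cells. The fold was 5.74 (log2 2.52 ± 0.80; adjusted p = 0.141, and 0.000988 with the block). Aloxe3, which acts on the product of the Alox12b enzyme, and Abca12, which encodes the lipid transporter of lamellar granules, also rose with the block and did not overlap (log2 1.87 ± 0.48 and 1.22 ± 0.36; adjusted p = 0.0249 and 0.0067 with the block). The fatty acid elongase gene Elovl4 and Fabp5 were higher in all 5 labels and did not pass (log2 0.97 ± 0.52 and 0.66 ± 0.40). Alox12e (ENSMUSG00000018907), the epidermal 12-lipoxygenase gene of the mouse, had the opposite direction. It was at 1.80, 4.11, 3.21, 2.18 and 0.983 CPM in CD34-positive libraries, against 60.1, 26.2, 6.20, 4.58 and 0.383 CPM in a6-high CD34-negative libraries. Both KO libraries of CD34-negative cells were far above every CD34-positive one, and WT replicate 3 was the only label with less in CD34-negative cells. The log2 difference of -2.33 ± 0.76 did not pass (adjusted p = 0.158, and 0.0978 with the block). In all, the libraries of 5 genes did not overlap, Sprr1a, Sprr1b, Alox12b, Aloxe3 and Abca12, each higher in CD34-positive cells (2.55% of all genes), and of 0 genes in the other direction (1.64%).

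**Figure D3:**
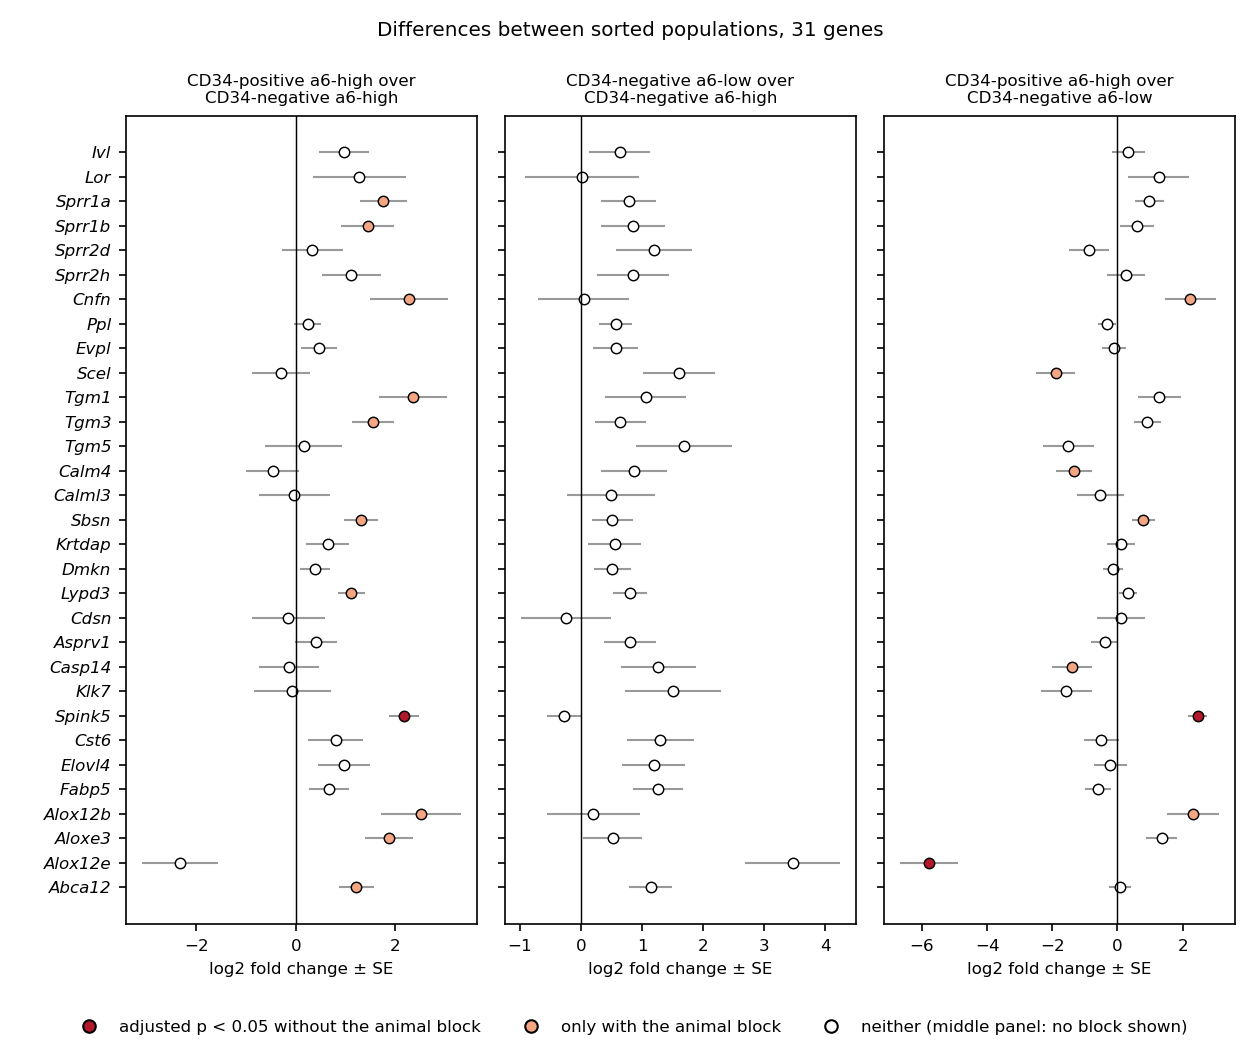
Log2 difference ± SE of 31 genes between the sorted populations, in 3 panels, with red points for genes that passed the test without a block and orange points for those that passed with the animal block alone (the a6 panel is shown without a block). Sprr3 and Rptn are left out, and in the CD34 panel most points lie right of 0 with Spink5 in red at 2.18.

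Markers of other cell types were measured beside these genes in the CD34 comparison. The summed level of the 11 endothelial markers was 12.7 to 76.6 CPM over the CD34-positive libraries, against 5.01 to 9.94 CPM in a6-high CD34-negative ones, and 9 of the 9 tested were higher in CD34-positive cells. Without the block 0 passed the edgeR test, with 5 with an unadjusted p under 0.05 and DESeq2 calling 4, and 2 rose with the block. The 15 markers of macrophages and dendritic cells came to 24.8 to 85.9 CPM over the CD34-positive libraries, against 15.3 to 242 CPM in a6-high CD34-negative ones. Of the 13 tested 5 were higher and 8 lower, and Cd68, a lysosomal protein gene, rose (17.3 ± 3.51 CPM in CD34-positive and 8.01 ± 1.56 CPM in a6-high CD34-negative cells, log2 1.14 ± 0.21, adjusted p = 0.0254). For fibroblast markers the sum was 0 to 0.328 CPM over the CD34-positive libraries, against 1.23 to 5.01 CPM in a6-high CD34-negative ones. All 5 tested were lower, and the surface protein gene Thy1 fell (0.0632 ± 0.119 CPM in CD34-positive and 1.71 ± 1.24 CPM in a6-high CD34-negative cells, adjusted p = 0.0352). For the 8 markers of T and natural killer cells it was 73.9 to 129 CPM over the CD34-positive libraries, against 37.7 to 89.1 CPM in a6-high CD34-negative ones. Nearly all of it was 1 gene, the T cell receptor gene Trbc2, with means of 105 and 58.0 CPM. Of the 8 markers 5 were at 0 in every CD34-positive library. Trbc2, the 1 tested, rose with the block (log2 0.88 ± 0.21; adjusted p = 0.064, and 0.0426 with the block). All these sums are small beside those of the keratinocyte genes, and their part in the result was not tested. The median log2 difference of the 33 genes was 0.64 without the CD34-positive library of KO replicate 1 and 1.32 without the a6-high CD34-negative one.

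The comparison of a6-low with a6-high cells, both CD34-negative, asks how the genes differ with a6, a receptor of cells on the basement membrane. Where the sorted cells lay in the tumours was not measured. Of the 33 genes 30 were higher in a6-low cells by the fitted log2 difference and 3 lower, Spink5, Cdsn and Sprr3. For Cdsn the plain means had the other order, 6.64 ± 10.9 CPM in a6-low and 5.91 ± 4.78 CPM in a6-high CD34-negative libraries. The median log2 difference was 0.80, against 0.02 over all genes. In spite of these directions 0 genes of the set passed the edgeR test, and over all genes 0.00683% rose, a single gene, and 0% fell. At an unadjusted p under 0.05, 7 of the 33 were higher and 0 lower, against 1621 of all 14652 genes in either direction. DESeq2 called 1 of the set, Alox12e. In all 5 animal labels 9 of the 33 (27.3%) were higher in a6-low cells and 0 were lower, against 6.85% and 8.16% of all genes. These 9 were Sprr1b, Ppl, Evpl, Tgm3, Tgm5, Sbsn, Fabp5, Alox12e and Abca12.

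All 6 lipid genes had a fitted log2 difference above 0 in a6-low cells, and Alox12e had the largest difference of the set. Alox12e was at 545, 42.8, 51.2, 122 and 28.5 CPM in a6-low libraries, against the 0.383 to 60.1 CPM of a6-high CD34-negative libraries listed above. KO replicate 1 was highest in both populations, and each label had more in a6-low cells. The log2 difference was 3.46 ± 0.77 (adjusted p = 0.189). Fabp5 (ENSMUSG00000027533), whose product carries fatty acids in differentiating keratinocytes, was at 18457, 3936, 4962, 16349 and 10446 CPM in a6-low libraries, against 7228, 3876, 2645, 3968 and 4551 CPM in a6-high CD34-negative libraries. The 3 a6-low libraries with low Itga6 lay above all a6-high ones, and the other 2 lay inside their range. The log2 difference was 1.26 ± 0.40 (adjusted p = 0.297). Elovl4 and Abca12 had log2 differences of 1.19 ± 0.52 and 1.14 ± 0.36, and Alox12b of 0.20 ± 0.76.

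Scel (ENSMUSG00000022123), which encodes the envelope protein sciellin, was at 57.3, 6.05, 10.9, 30.4 and 12.7 CPM in a6-low libraries, against 14.0, 7.97, 7.93, 6.73 and 1.92 CPM in a6-high CD34-negative libraries. KO replicate 1 and WT replicate 2 were high in a6-low cells, and KO replicate 2 was the 1 label with less there. The log2 difference was 1.61 ± 0.59 (adjusted p = 0.362), and the other envelope genes ranged from 0.01 for Lor to 1.20 for Sprr2d, with Sprr3 left aside. Casp14 (ENSMUSG00000005355), whose caspase takes part in the breakdown of filaggrin, was at 105, 12.8, 31.2, 115 and 52.0 CPM in a6-low libraries, against 38.6, 16.9, 21.0, 22.5 and 29.3 CPM in a6-high CD34-negative libraries (log2 1.26 ± 0.61, adjusted p = 0.478). Cst6 (ENSMUSG00000024846), which encodes an inhibitor of cathepsins and legumain, was at 170.4, 40.0, 66.6, 396 and 146 CPM in a6-low libraries, against 47.7, 44.3, 86.5, 23.6 and 119.5 CPM in a6-high CD34-negative libraries (log2 1.30 ± 0.55, adjusted p = 0.411). Both genes were far above the a6-high libraries in WT replicate 2 and within or below them in KO replicate 2. Calm4 (ENSMUSG00000033765), a calcium-binding protein gene of the epidermis, was at 7862, 1441, 2135, 12282 and 6482 CPM in a6-low libraries, against 3694, 2017, 2485, 3688 and 3941 CPM in a6-high CD34-negative libraries (log2 0.88 ± 0.54, adjusted p = 0.601). For Calm4, Krtdap and Cst6 the 3 labels with more in a6-low cells were the same, KO replicate 1, WT replicate 2 and WT replicate 3, whose a6-low libraries had low Itga6. Not all 13 genes with more in 3 labels had these labels. For Ivl, Cnfn and Lypd3 they were KO replicates 1 and 2 and WT replicate 2.

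Without the 2 a6-low libraries at the Itga6 level of a6-high cells, 5 of the 33 genes rose in a6-low cells and 0 fell, against 0.814% and 1.41% of all 15364 genes then tested. They were Fabp5 (log2 1.79, adjusted p = 0.00902), Alox12e (log2 3.98, adjusted p = 0.0145), Elovl4 (log2 1.78, adjusted p = 0.0307), Scel (log2 2.16, adjusted p = 0.0465) and Abca12 (log2 1.46, adjusted p = 0.0472). Directions were again 30 higher and 3 lower, with a median log2 difference of 1.06. With 1 library left out of the comparison of all, the median was 0.13 (a6-low, KO replicate 1), 0.51 (a6-high, KO replicate 2) or 1.22 (a6-high, KO replicate 1).

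Markers of other cell types were counted between a6-low and a6-high cells too. Those of sebocytes and the upper follicle summed to 1293 to 3615 CPM in a6-low and 670.2 to 1061 CPM in a6-high CD34-negative libraries, without overlap. Of the 12 tested 8 were higher and 4 lower, with 5 higher and 0 lower at an unadjusted p under 0.05, 0 passing the edgeR test and DESeq2 calling 1. The keratin gene Krt79, a marker of the upper follicle, was at 152 ± 147 CPM in a6-low and 6.36 ± 2.87 CPM in a6-high CD34-negative cells (log2 4.32 ± 0.97, adjusted p = 0.189). Macrophage and dendritic cell markers summed to 56.3 to 368 CPM in a6-low and 15.3 to 242 CPM in a6-high CD34-negative libraries, and 12 of the 13 tested were higher, of which 7 had an unadjusted p under 0.05, 0 passed the edgeR test and DESeq2 called 7. Endothelial markers summed to 6.14 to 34.8 CPM in a6-low and 5.01 to 9.94 CPM in a6-high CD34-negative libraries, and all 9 tested were higher (median log2 2.15), 4 with an unadjusted p under 0.05, with 0 passing the edgeR test and DESeq2 calling 0. Melanocyte markers summed to 139.6 CPM in the a6-low library of KO replicate 1 and to at most 6.55 CPM in the other 14 libraries. The part of these markers in the result was not tested.

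**Figure D4:**
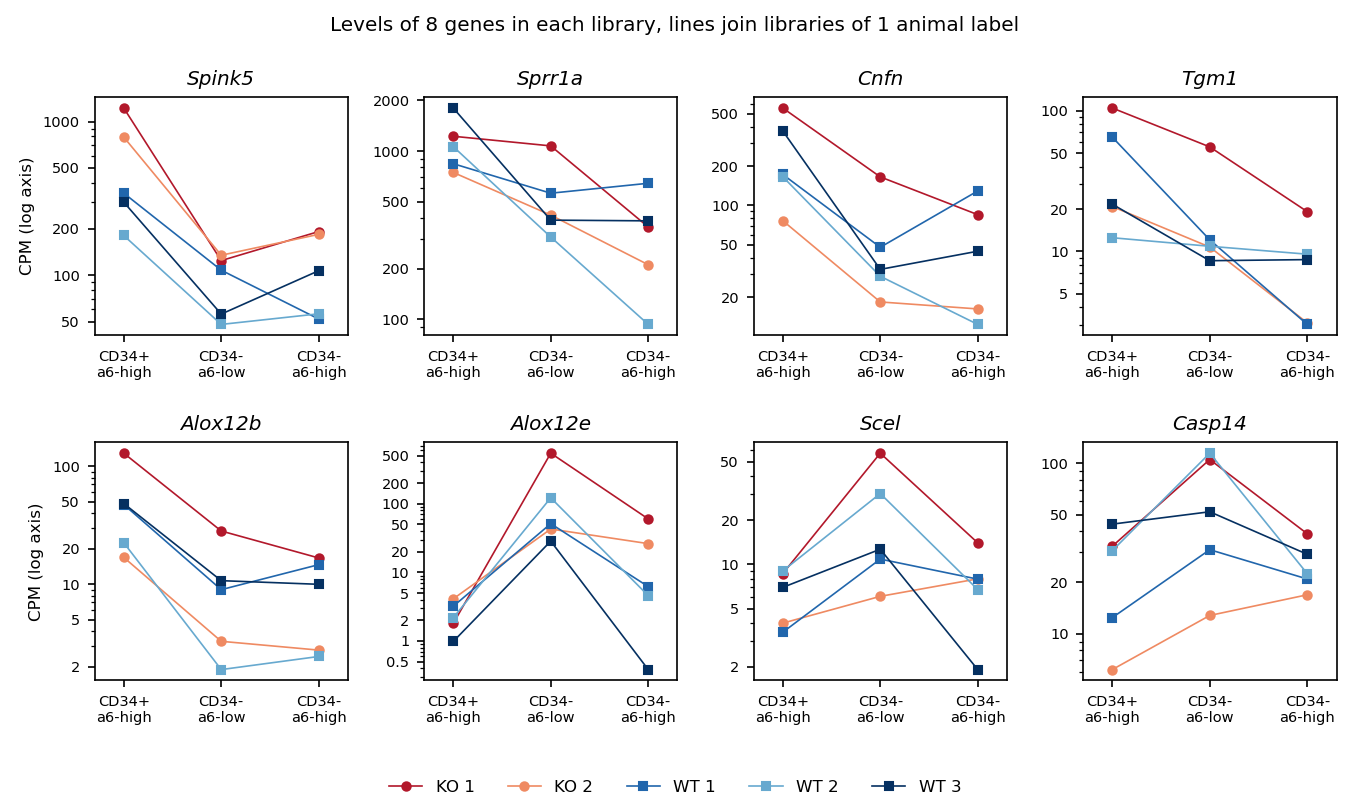
Level in CPM (log axis) of 8 genes in each library of the 3 populations, with lines that join libraries of the same animal label. Spink5, Sprr1a, Cnfn, Tgm1 and Alox12b are highest in CD34-positive cells, and Alox12e, Scel and Casp14 in a6-low cells, where the a6-low library of KO replicate 1 has 545 CPM of Alox12e.

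Set against each other, CD34-positive a6-high and CD34-negative a6-low cells split the genes: 18 were higher in CD34-positive cells and 15 lower, with a median log2 difference of 0.09 against -0.02 over all genes. Spink5 rose in CD34-positive cells and Alox12e fell, where 2.25% of all genes rose and 2.68% fell. With the animal block 4 rose (Spink5, Cnfn, Sbsn and Alox12b) and 4 fell (Alox12e, Scel, Calm4 and Casp14), against 5.68% and 6.15% of all genes. In all 5 labels 7 genes were higher in CD34-positive cells (14.7% of all genes) and 5 lower (14.8%). The 7 were Sprr1a, Sprr1b, Cnfn, Tgm1, Sbsn, Spink5 and Alox12b, and the 5 were Ppl, Scel, Calm4, Casp14 and Alox12e.

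Spink5 averaged 568 ± 434 CPM in CD34-positive and 94.3 ± 39.9 CPM in a6-low libraries (SD, n = 5 each), and the a6-low values were 125, 135, 108, 47.9 and 55.9 CPM. The populations did not overlap (3.25% of all genes, in this direction). The log2 difference was 2.46 ± 0.30 (adjusted p = 0.00602). Alox12e averaged 2.46 ± 1.22 CPM in CD34-positive and 158 ± 219 CPM in a6-low libraries. Its highest CD34-positive library had 4.11 CPM and its lowest a6-low library 28.5 CPM, so it too did not overlap (3.67% of all genes, lower). The log2 difference was -5.79 ± 0.89 (adjusted p = 0.00964), and the call was lost without the CD34-positive library of KO replicate 1 (log2 -5.55, adjusted p = 0.0678).

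Other genes that moved with the block lay on both sides. Scel was at 8.65, 3.97, 3.44, 9.02 and 6.97 CPM, Casp14 at 32.7, 6.17, 12.4, 30.8 and 44.0 CPM and Calm4 at 1993, 1124, 1174, 4464 and 4073 CPM in CD34-positive libraries, against the a6-low values given above. Each was lower than in a6-low cells in all 5 labels (log2 -1.90 ± 0.60, -1.39 ± 0.61 and -1.34 ± 0.55; with the block adjusted p = 0.0458, 0.0336 and 0.0421). Cnfn was at 165, 18.4, 48.0, 28.8 and 32.5 CPM and Alox12b at 28.2, 3.27, 8.98, 1.89 and 10.7 CPM in a6-low libraries, near their levels in a6-high CD34-negative cells and below CD34-positive cells in all 5 labels (log2 2.24 ± 0.78 and 2.32 ± 0.79; with the block adjusted p = 0.00842 and 0.0012). Sprr1a was at 1073, 416, 562, 309 and 389 CPM and Tgm1 at 55.3, 10.7, 12.1, 10.9 and 8.58 CPM in a6-low libraries, between the other populations by their means. Fabp5 was at 8356, 6181, 7269, 6481 and 7674 CPM and Cst6 at 93.1, 64.0, 80.4, 133 and 195 CPM in CD34-positive libraries, with log2 differences of -0.60 ± 0.40 and -0.50 ± 0.54 from a6-low cells. Lypd3 and Tgm3, at 3602, 1953, 1994, 3038 and 2516 CPM and 10.1, 4.31, 3.24, 8.10 and 4.68 CPM in a6-low libraries, differed by 0.32 ± 0.27 and 0.91 ± 0.41. Without the 2 a6-low libraries of high Itga6, Spink5 rose (log2 2.71; 3.78% of all genes) and Alox12e, Scel, Calm4 and Fabp5 fell (-6.31, -2.46, -1.93 and -1.12; 2.59%).

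By the order of their 3 means, 15 genes ran from CD34-positive over a6-low to a6-high CD34-negative cells, most of the small proline-rich protein, transglutaminase and lipoxygenase genes among them. A further 9 were highest in a6-low cells, then CD34-positive, then a6-high CD34-negative cells, with Ppl, Evpl, Fabp5, Elovl4 and Cst6. In 6, Scel, Calm4, Calml3, Casp14, Klk7 and Alox12e, CD34-positive cells were lowest. Spink5, Sprr3 and Rptn had a6-low cells lowest. Neighbours in these orders can be read as different only where a test given above passed. Some were almost equal, as for Cdsn with 6.65 CPM in CD34-positive and 6.64 CPM in a6-low libraries.

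The genotype comparison asks whether deletion of Sirt6 goes with other levels of these genes within a population. In libraries labelled KO against WT, 0 of the 33 genes passed in CD34-positive, a6-low or a6-high CD34-negative cells or in sums over the populations, by the edgeR test. Of all genes 0.00683% passed in each population, 1 gene each time, and 0.00641% in the sums. At an unadjusted p under 0.05 there were 3 genes of the set higher and 1 lower in CD34-positive, 5 and 0 in a6-low, 5 and 1 in a6-high CD34-negative cells and 8 and 1 in the sums. In either direction 1112, 687 and 1405 of all 14652 genes had such a p in these populations, and 1656 of 15597 in the sums. DESeq2 called 1 (Spink5) in CD34-positive cells, 0 in the other populations and 2 (Spink5 and Rptn) in the sums. The median log2 difference of the set was 0.03 in CD34-positive, 0.50 in a6-low and 0.20 in a6-high CD34-negative cells. Without KO replicate 1 these medians were -0.70, -1.04 and -0.82, so their sign rests on 1 of the 2 libraries labelled KO.

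Spink5 had the smallest p of the set in CD34-positive cells, in a6-high CD34-negative cells and in the sums. It averaged 1008 ± 306 CPM in KO and 274 ± 83.1 CPM in WT libraries of CD34-positive cells (SD, n = 2 and n = 3), 129.8 ± 7.37 and 70.6 ± 32.6 CPM in a6-low cells, and 189 ± 5.60 and 71.7 ± 30.7 CPM in a6-high CD34-negative cells. The KO libraries lay above the WT ones in all 3 populations, as did those of 1.39% of all genes. The log2 differences were 1.88 ± 0.39, 0.88 ± 0.39 and 1.40 ± 0.39, and none passed after adjustment (adjusted p = 0.503, 0.865 and 0.498). In the sums it was 1.58 ± 0.29 (adjusted p = 0.461).

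Tgm3 was higher without overlap in KO libraries of both a6-high populations, with 24.9 ± 17.3 CPM in KO and 5.34 ± 2.71 CPM in WT libraries of CD34-positive cells and 6.48 ± 3.16 and 2.40 ± 0.635 CPM in a6-high CD34-negative cells (log2 2.21 ± 0.57 and 1.43 ± 0.58; adjusted p = 0.652 and 0.51). Krtdap was lower without overlap in the same populations, with 4781 ± 1790 CPM in KO and 11560 ± 3379 CPM in WT libraries of CD34-positive cells and 2922 ± 409.9 and 7736 ± 4091 CPM in a6-high CD34-negative cells (log2 -1.27 ± 0.64 and -1.40 ± 0.64; adjusted p = 0.652 and 0.52). Neither difference passed, and their directions were opposite. Alox12e was higher without overlap in KO libraries of a6-high CD34-negative cells, whose values stand above (log2 3.52 ± 1.03, adjusted p = 0.498). In CD34-positive cells 6 genes lay above WT without overlap (Lor, Tgm3, Calml3, Cdsn, Klk7 and Spink5) and 5 below (Sprr2d, Sprr2h, Krtdap, Lypd3 and Asprv1), against 14.9% and 13.2% of all genes. In a6-low cells 4 lay above (Sprr3, Calml3, Spink5 and Aloxe3) and 0 below, against 8.51% and 6.39%. In a6-high CD34-negative cells 4 lay above (Scel, Tgm3, Spink5 and Alox12e) and 2 below (Krtdap and Dmkn), against 16.5% and 13.7%. Such shares of the set were near those of all genes.

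Whether the CD34 or the a6 difference itself depended on genotype was tested as an interaction. None of the 33 genes passed in either test, and 0% and 0% of all genes did. In both, 0 of the set reached an unadjusted p under 0.05, against 159 and 168 of all genes. DESeq2 called 0 of the set. The Y-linked gene above sets KO replicate 2 apart from the other 4 animal labels, and its part in the result was not tested.

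Markers of other cells were also set by genotype label. Those of macrophages and dendritic cells summed to 53.3 and 83.4 CPM in KO, against 24.8, 85.9 and 40.2 CPM in WT libraries of CD34-positive cells, to 368 and 310.1 CPM in KO, against 175, 171 and 56.3 CPM in WT libraries of a6-low cells, and to 242 and 67.1 CPM in KO, against 115, 18.7 and 15.3 CPM in WT libraries of a6-high CD34-negative cells. Only in a6-low cells did these sums not overlap. Higher in KO were 11 of the 13 tested in CD34-positive, 12 in a6-low and 12 in a6-high CD34-negative cells (median log2 3.76, 1.15 and 2.49), and 14 of 15 in the sums over populations. None passed the edgeR test, while 7, 1, 5 and 8 were higher at an unadjusted p under 0.05, and by DESeq2 3, 0, 1 and 2 passed, all higher. Melanocyte markers were higher in KO in all 4 tested in a6-low cells, each with an unadjusted p under 0.05, where 0 passed the edgeR test and DESeq2 called 0. The part of these markers in the genotype values was not tested.

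Of the 29 other tested genes of the epidermal differentiation complex, 29 were higher in KO libraries of a6-low cells (median log2 2.59 against 0.04 over all genes), 15 in CD34-positive and 12 in a6-high CD34-negative cells. In a6-low cells 8 had an unadjusted p under 0.05, 0 passed the edgeR test and DESeq2 called 0. Their summed level in a6-low cells was 1684 and 258 CPM in KO, against 253, 564 and 192 CPM in WT libraries, so KO replicate 1 was highest and KO replicate 2 lay inside the range of WT.

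**Figure D5:**
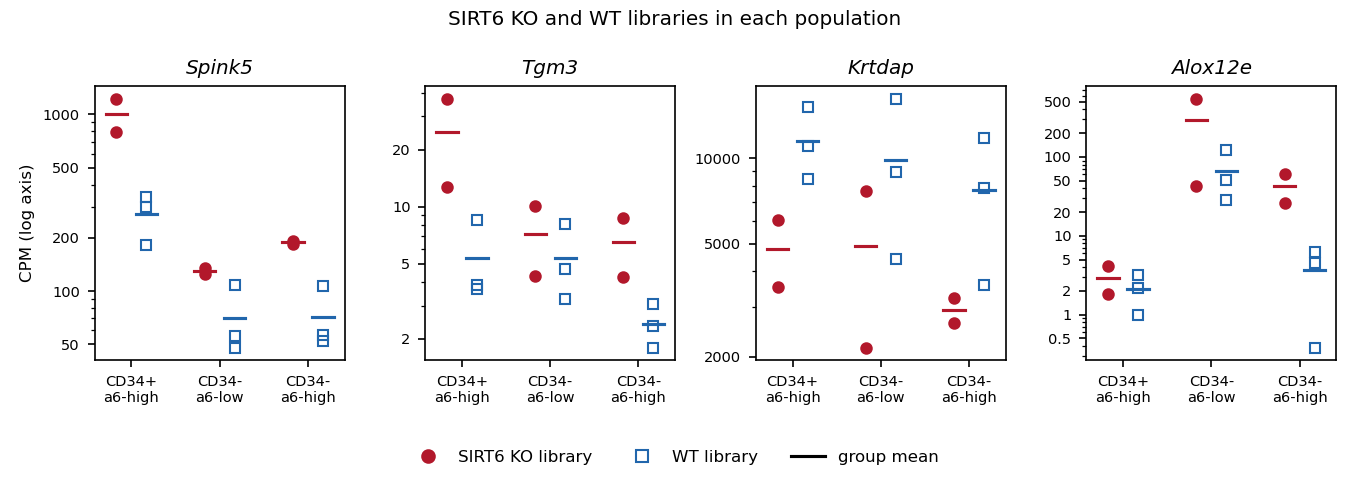
Level in CPM (log axis) of Spink5, Tgm3, Krtdap and Alox12e in libraries labelled KO (left) and WT (right) of each population, with a point per library and a bar at the mean. Spink5 of KO libraries lies above that of WT libraries in all 3 populations, with means of 1008 and 274 CPM in CD34-positive cells.

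Other genes of the same program were counted in lists grouped by function. In the CD34 comparison 0.846% of all genes rose and 0.321% fell, and 3.33% and 2.08% with the block. Of 29 tested genes of the epidermal differentiation complex on chromosome 3 that are not in the set, 21 were higher in CD34-positive than in a6-high CD34-negative cells, and 0 passed the edgeR test, with 4 higher and 3 lower with an unadjusted p under 0.05 and DESeq2 calling 3 and 2 (with the block 2 rose and 2 fell). Of 27 other barrier lipid genes 18 were higher. There too 0 passed the edgeR test, with 8 higher and 2 lower with an unadjusted p under 0.05 and DESeq2 calling 5 and 1, and with the block 5 rose and 2 fell. The sulfotransferase gene Sult2b1 was at 687 ± 318 CPM in CD34-positive and 151 ± 84.2 CPM in a6-high CD34-negative cells (log2 2.29 ± 0.54; adjusted p = 0.06, and 0.002 with the block). Of 25 other proteases and inhibitors 19 were higher, 1 rose, the serine protease gene Tmprss11e (23.6 ± 8.80 against 4.60 ± 1.77 CPM, log2 2.36 ± 0.34, adjusted p = 0.00834), and with the block 6 rose and 1 fell. All 6 stress keratin and S100 genes, known from wounded and hyperproliferative epidermis, were higher in CD34-positive than in a6-high CD34-negative cells. All 6 were also higher in a6-low than in a6-high CD34-negative cells, where 0 passed the edgeR test and DESeq2 called 3. In CD34-positive cells Krt17 rose (9966 ± 2740 against 3107 ± 953 CPM, log2 1.64 ± 0.21, adjusted p = 0.00786). Early suprabasal genes had no such direction in CD34-positive cells: 8 of 15 were higher and 7 lower, and with the block 1 rose and 3 fell, Krt1, Krt10 and Krt80.

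Between a6-low and a6-high cells the early suprabasal list was higher in 13 of 15, barrier lipid genes in 25 of 27 and regulators of late differentiation in 26 of 29, while all 13 basal keratinocyte genes and all 15 cell cycle genes had lower means. Mxd1, a Myc antagonist of differentiating keratinocytes, was the 1 gene of these lists to pass, though 17 regulators were higher and 2 lower at an unadjusted p under 0.05 (99.4 ± 28.4 CPM in a6-low and 39.2 ± 8.28 CPM in a6-high CD34-negative cells, log2 1.41 ± 0.15, adjusted p = 0.00798). Mxd1 also rose in CD34-positive over a6-high CD34-negative cells (log2 0.88 ± 0.15, adjusted p = 0.0161), whereas the nuclear receptor gene Rora fell there (log2 -1.53 ± 0.32, adjusted p = 0.0416).

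In CD34-positive against a6-low cells 9 of 29 regulators fell and 0 rose, with the smallest p for the epithelial factor gene Ehf (69.6 ± 36.8 against 237 ± 86.5 CPM, log2 -1.97 ± 0.31, adjusted p = 0.0101), Rora (log2 -1.86 ± 0.33, adjusted p = 0.0142), Gata3 (log2 -1.72 ± 0.30, adjusted p = 0.0143) and the AP-1 gene Fosl2 (log2 -1.08 ± 0.19, adjusted p = 0.0153). With the block 16 fell and 0 rose. Of all genes 2.68% fell and 2.25% rose in this comparison, and 6.15% and 5.68% with the block. All 15 cell cycle genes were higher in CD34-positive cells, and Cdk1, Plk1 and Aurkb rose (10 with the block). Of the early suprabasal list 14 of 15 were lower in CD34-positive cells and the keratin gene Krt80 fell (log2 -3.50 ± 0.56, adjusted p = 0.0101). The 3 population comparisons share libraries, so their counts are not independent. Tmprss11e rose, while the cystatin-family genes Stfa3 and Stfa1 and the serpin gene Serpinb3a fell (log2 2.37 ± 0.34, -2.53 ± 0.47, -3.11 ± 0.70 and -3.11 ± 0.80). Of the complex's other genes Sprr2a3 and Sprr2a1, which are close copies of each other and whose counts are uncertain, fell. Macrophage genes Lyz2, C1qa, C1qb, C1qc and Tyrobp fell too, with a summed marker level of 24.8 to 85.9 CPM over the CD34-positive libraries, against 56.3 to 368 CPM in a6-low ones. The sum for sebocytes and the upper follicle was 685 to 1297 CPM over the CD34-positive libraries, against 1293 to 3615 CPM in a6-low ones, while Pparg and Plin2 rose in CD34-positive cells (log2 1.58 ± 0.36 and 1.19 ± 0.27), and Trbc2 rose (log2 0.83 ± 0.21, adjusted p = 0.0439). The part of these markers in the result was not tested.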

How the data were processed

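Sorted cells were lysed in kit buffer and their RNA was reverse-transcribed with SMART-Seq v4, which keeps no strand, and 10 ng cDNA and 7 PCR cycles made each library, per the labels' protocols. The authors deposited whole-number read counts per Ensembl gene, not normalized and, per the file names, not stranded. The submitters' processing notes name the build mm9 and the tools HTSeq 0.6.0, STAR 2.3.0 and Picard 1.100. Reads at several places (29.86% to 38.04% of records), outside genes (2.61% to 5.13%) and in more than 1 gene (1.86% to 2.20%) count for no gene. Symbols were matched for 32860 of 37583 genes. Shared stretches of 50 bases with other genes make Sprr2d, Calm4, Fabp5 and Sbsn (4.27% to 9.93% of their windows) slightly uncertain. Tgm1 and Lypd3 overlap antisense genes over 182 and 225 bases, whose reads cannot be told apart without strand. Exon lengths and overlaps are from GENCODE M21, another build, of which no coordinates are given.

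The 36 genes and the other lists were chosen with earlier results of these data known. The test was the quasi-likelihood test of edgeR 4.0.16 in R 4.3.3 (TMM, filterByExpr), 1 fit of 15 libraries, with Benjamini-Hochberg adjustment over all genes at 0.05. Population differences are the mean of the KO and the WT difference. Sums add the 3 libraries of an animal label. Alternatives were DESeq2 1.42.0, its size factors, no filter, at least 10 CPM in 2 libraries, only the compared groups, a replicate block and leaving out each library. Python 3.11.15 made the tables and figures. The tests were tried on simulated data.

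Values in every library are given for genes that passed, for the 4 largest differences of each population comparison among genes of at least 10 CPM, for the 6 most abundant genes, and for Ivl, Lor, Tgm1, Tgm3 and Casp14. From the other lists at most 4 genes of smallest p get values.

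No 2 replicates were alike within sampling noise (chi-square over its degrees of freedom 38.5 to 304), so each counts once. Libraries of an animal label deviated together between CD34-positive and both other populations (correlation of deviations 0.10 to 0.53 and 0.27 to 0.59, over 0.1 in 5 of 5), so they were taken as pairs. The lowest of these, 0.104 for WT replicate 1, was no higher than the 0.105 of the replicate 2 KO and WT libraries of CD34-positive cells. The cut of 0.1 thus does not clearly separate libraries of 1 label from others, and calls with the block rest on this choice. Between a6-low and a6-high CD34-negative libraries it was -0.01 to 0.47, over 0.1 in 3 of 5, and between KO and WT -0.50 to 0.11, so these were not. The pairing comes from the data, and with 2 KO libraries both KO pairs give 1 value. As the labels do not say whether libraries came from separate animals, p-values only measure the spread of these samples, which may be technical. Counting error is smallest for abundant genes.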

Additional observations from a re-analysis of the deposited data

How the results depend on the processing

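Of 273 values of single genes under the alternatives 243 kept direction and side of the threshold, 27 newly passed, 3 no longer passed and 0 reversed. These single genes were those that passed or had the largest differences, and Spink5 for KO against WT, so reversals were unlikely by that choice. Over the whole set the CD34 directions went from 26 higher and 7 lower to 29 and 4 with the replicate block. In the CD34 comparison 1 gene passed. It was 17 (16 higher, 1 lower) with no filter on low counts, 11 with the replicate block, 9 with DESeq2, 2 with only the compared groups, and 0 to 2 when a library was left out. In the a6 comparison 0 passed, and 14 did with no filter and 1 with DESeq2. With the replicate block 1 did (Abca12), though these libraries were not taken as pairs. For CD34-positive against a6-low cells 2 passed, against 14 with no filter, 8 with the block, 6 with DESeq2, 5 without those 2 libraries, and 1 to 3 with a library left out. For KO against WT 0 passed. With no filter 6 passed in CD34-positive, 6 in a6-high CD34-negative and 3 in a6-low cells, with DESeq2 1 in CD34-positive cells and 2 in the sums, and 0 to 0 with a library left out. The share of all genes that passed under the same settings is not given for KO against WT, so these counts have no background here. The genotype interaction of the CD34 difference gave 1 with no filter (Alox12e, lower), likewise without that share.

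Spink5 of libraries labelled KO passed with DESeq2 in CD34-positive cells (log2 1.88, adjusted p = 0.00792) and in the sums (1.57, adjusted p = 0.00219). With KO and WT paired by replicate number as a block, and in the interactions with the animal block, 0 genes of the set passed, and the numbers did not pair those libraries. The cause of these changes was not tested. Over all genes the CD34 count of 124 higher and 47 lower was 755 and 487 with no filter, 536 and 310 with DESeq2 and 225 and 86 with only the compared groups. In the a6 comparison, where 1 rose, it was 450 and 152, 167 and 65 and, with the block, 52 and 8. For CD34-positive against a6-low cells, where 330 rose and 392 fell, it was 819 and 1081 with no filter and 728 and 851 with DESeq2. Depth left Sprr4 and Hrnr untested, and what depth and the 2 libraries labelled KO in a group each allow in the genotype comparisons was not compared.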
